A study of Mus musculus with 16 samples.

Results

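MIR, L2 and CR1 elements are among the oldest repeats in the mouse genome, and the reads on their single copies were followed here across chromatin-associated RNA of mouse embryonic stem cells. A copy was taken as a member when it belonged to one of these 3 families and carried at least 5 reads in 2 or more of the 16 libraries. By this rule 14777 of 39722 annotated copies were members, of 1035541 copies of any repeat family that met the same read limit among 4929385 in the deposited table. MIR gave 9718 members of 25824 copies, L2 gave 4261 of 11240 and CR1 gave 798 of 2658. The members were chosen by their read counts in these libraries, so that they carry reads is not a result. At its edge, 684 members had exactly 5 reads in their second-highest library, and 2147 copies of the same families had exactly 4 there and were left out.

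MIR elements are short interspersed repeats that descend from a transfer RNA and were copied by the machinery of L2 elements, with which they share their tail. L2 and CR1 are long interspersed repeats of old retrotransposon clades, present today as short, worn fragments. None of these families is known to move in the mouse, and their copies lie scattered through introns and between genes. Reads on them are therefore usually read as parts of longer host or intergenic transcripts, which is why such copies can serve as a gauge of unspliced and intergenic RNA.

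The cells were E14TG2a, a male mouse embryonic stem cell line, kept with 1000 U/ml LIF, 1 µM PD0325901 and 3 µM CHIR99021, the combination that holds these cells in the naive state. Each of the 8 groups ectopically expressed one histone demethylase, and there were 2 libraries in each group. The 4 groups compared first expressed KDM4A, KDM4B, KDM6A or KDM6B from which an intrinsically disordered region had been deleted, called IDR-deleted here (del-cIDR in the sample titles, del-IDR in the genotypes). The other 4 expressed the full-length (FL) form of the same protein. KDM4A and KDM4B remove methyl groups from lysine 9 and lysine 36 of histone H3, and KDM6A and KDM6B remove them from lysine 27. Every group carried a construct, no library without one was analysed here, and the labels do not say whether the replicates came from separate cultures. P-values therefore measure the spread between these libraries, which may be technical. Same-numbered libraries of the KDM4A, KDM4B and KDM6A groups deviated weakly in the same direction, and the main tests do not model this.

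RNA was taken from the chromatin fraction, depleted of ribosomal RNA and sequenced from stranded libraries. The libraries held 32739117 to 54890756 reads on genes and 20313223 to 47548396 on repeat copies. Reads of Kdm6a, which may include reads of the construct, stood at 415 to 435 CPM, reads scaled to the size of each library, with the IDR-deleted and 425 to 441 CPM with the full-length KDM6A construct, against 95.7 to 156 CPM in the other 12 libraries. For Kdm4a, Kdm4b and Kdm6b the full-length libraries lay inside or within a few CPM of the range of the other 12, so these genes check the full-length labels weakly. Kdm4a stood at 292 to 300 CPM with IDR-deleted and 206 to 217 CPM with full-length KDM4A. In the other 12 libraries it stood at 165 to 272 CPM. Kdm6b stood at 93.0 to 96.4 CPM with IDR-deleted and 78.1 to 85.2 CPM with full-length KDM6B, against 69.1 to 81.4 CPM elsewhere. Kdm4b overlapped between the forms. The part of these levels in the results below was not tested. The stem cell genes Pou5f1, Nanog, Sox2, Zfp42 and Esrrb were read in every library. Pou5f1 varied from 52.9 to 233 CPM, and Dppa3, of the same list, from 1.447 to 20.3 CPM. The fibroblast genes Col3a1 and Postn were at or near 0. Col1a1, Thy1 and Col1a2, also of the fibroblast list, were read in every library and reached 4.66, 3.37 and 0.959 CPM. The sum of 5 fibroblast genes was 8.07 to 8.15 CPM with IDR-deleted and 4.90 to 5.10 CPM with full-length KDM4A. That of the neural genes Tubb3, Pax6 and Neurod1 was 17.2 to 18.5 CPM with IDR-deleted and 14.5 to 15.5 CPM with full-length KDM4A. The summed level of 4 primitive endoderm genes reached 22.3 CPM with IDR-deleted and 6.29 CPM with full-length KDM4A. It was 8.23 to 8.39 CPM with IDR-deleted and 3.73 to 3.79 CPM with full-length KDM4B, and the part of these genes in the results below was not tested. In bulk RNA, fewer cells of a kind and less RNA per cell cannot be told apart.

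Of the 14777 members, 51 lay wholly inside the window from 250 bases before to 50 bases after a gene start. Of these, 2 that lie wholly upstream of the start are shown. For both, the RefSeq promoter table (GRCm38.p6) holds a start that coincides with the gene start of a gene model of equal span. Other members in the window may have such a start too, so 2 is not a full count of them. The 2 shown copies give an example of an ancient copy next to a start. Both are MIR copies, placed by their distance from the start, and each stretch covers the 250 bases upstream with the MIR copy in capitals.
Srebf1, chr11:60222582-60222831, minus strand: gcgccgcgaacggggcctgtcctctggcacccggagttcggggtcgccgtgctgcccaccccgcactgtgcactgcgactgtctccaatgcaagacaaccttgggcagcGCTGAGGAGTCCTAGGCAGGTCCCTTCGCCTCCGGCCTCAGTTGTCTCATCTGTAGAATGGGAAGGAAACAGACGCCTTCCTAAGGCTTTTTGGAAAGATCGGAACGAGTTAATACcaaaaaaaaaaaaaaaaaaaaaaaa
Rap1gap, chr4:137664476-137664725, plus strand: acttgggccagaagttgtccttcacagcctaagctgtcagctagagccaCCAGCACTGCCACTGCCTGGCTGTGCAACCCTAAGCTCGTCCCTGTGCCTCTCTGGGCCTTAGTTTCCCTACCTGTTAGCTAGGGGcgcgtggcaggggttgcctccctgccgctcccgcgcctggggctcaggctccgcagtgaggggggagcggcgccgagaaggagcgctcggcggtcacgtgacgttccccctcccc

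The copy at Srebf1, the gene of a master regulator of lipid synthesis, spans bases 26 to 141 upstream of the start on the strand of the gene and is 51.7% G and C. It was the most highly read intergenic member. It had 23.2 and 20.2 CPM with IDR-deleted KDM4A, against 34.5 and 32.5 CPM with full-length KDM4A, and the groups did not overlap. Its log2 change was -0.63 with a standard error (SE) of 0.18 and an edgeR adjusted p of 0.00913, while exon reads of Srebf1 itself changed by 0.35 the other way (adjusted p = 3.85e-07). Its changes in the other 3 demethylases did not pass the threshold. The copy at Rap1gap, the gene of a GTPase-activating protein of Rap1, spans bases 116 to 201 upstream and averaged only 0.159 CPM.

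Members differed widely in depth. The median member had 10.8 reads per library and the highest 1289, and the top 147 members, the top 1%, held 13.9% of all member reads. Members held 98.1% of the reads on MIR copies, 98.7% of those on L2 and 98.3% of those on CR1, so sums over all copies of a family are close to sums over the members and do not use the read limit. Only 139 members reached 5 reads in a single group, and 7687 reached it in all 8.

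Position went with the chance of being read. A copy was called exonic when any base lay in an annotated exon, intronic when it lay in a gene without touching an exon, and intergenic otherwise. For MIR, 67.7% of exonic, 53.3% of intronic and 12.1% of intergenic copies met the read limit, and the shares for L2 (69.3%, 54.6% and 13.8%) and CR1 (66.0%, 47.3% and 9.10%) fell in the same order. Per kilobase of copy, and averaged over the 16 libraries, the 3 families together had a level of 5.69 CPM in exons, 2.71 CPM in introns and 0.270 CPM between genes. CR1 was the lowest in each position, with levels of 4.72, 1.79 and 0.135 CPM per kilobase. Of the 39722 copies, 21694 were intronic.

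Strand relative to the host gene was a feature the rule did not use. Among intronic L2 copies, 3442 lay opposite to their host and 2498 on the same strand, and the opposite ones had a level of 4.06 CPM per kilobase against 1.37 for the same strand. The range over the 16 libraries was 2.45 to 5.00 for opposite and 0.792 to 1.78 for same-strand copies, so the ranges did not overlap. Every library read the same copies, so these ranges do not measure the spread between copies, and the difference was not tested. Members were 60.1% of the opposite and 47.0% of the same-strand L2 copies. Few copies can weigh heavily in such levels, since the top 10% of all members held 50.8% of member reads. CR1 showed the other order, with 1.18 CPM per kilobase for opposite and 2.41 for same-strand copies, and MIR copies were close, at 2.86 and 2.51. The counting ignored strand, so these values do not say which strand was transcribed, and overlapping genes on both strands could not be separated.

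The 8 groups differed in the total on these copies (edgeR F test over 8 groups, adjusted p = 2.26e-13). IDR-deleted KDM6A was highest with 11136 ± 81.6 CPM and IDR-deleted KDM6B lowest with 6338 ± 28.3 CPM (SD, n = 2 each). Between them, in falling order, stood full-length KDM4B at 10884 ± 46.1, full-length KDM6A at 10738 ± 92.9, IDR-deleted KDM4B at 9936 ± 36.1, full-length KDM4A at 9726 ± 28.1, IDR-deleted KDM4A at 8389 ± 37.0 and full-length KDM6B at 7910 ± 165 CPM. The libraries of no 2 neighbouring groups in this order overlapped, though for MIR and for CR1 full-length KDM4B overlapped with full-length KDM6A. Both KDM6B groups stood low, so the form of the protein was not the only difference between libraries.

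**Figure D1:**
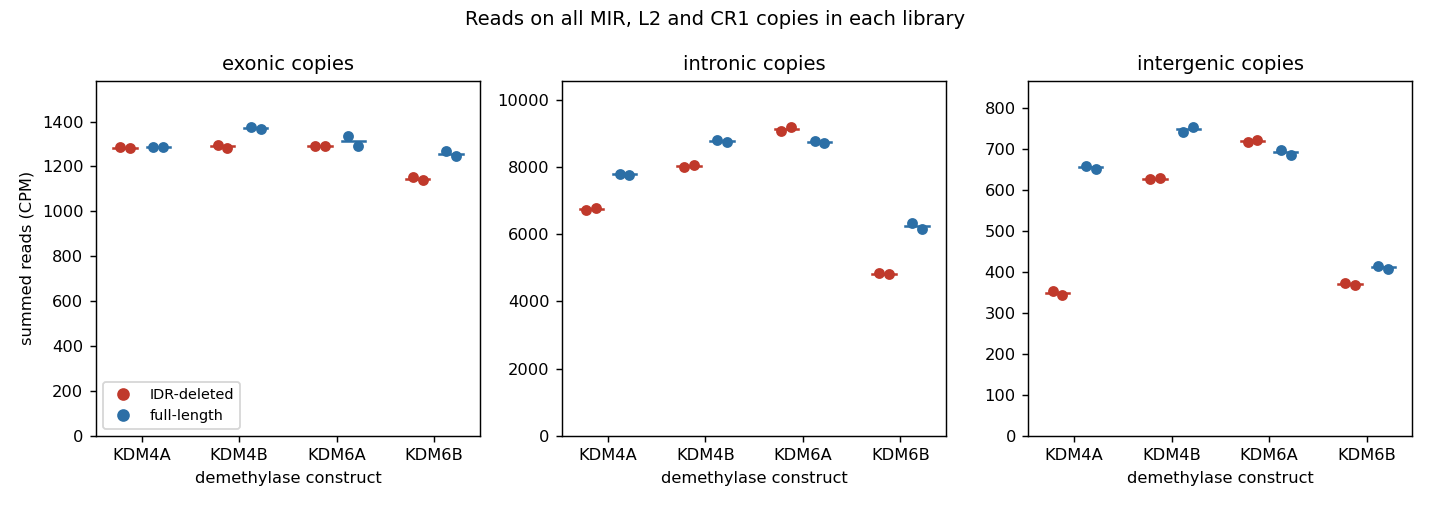
Summed reads in CPM (y axis, from 0) on exonic, intronic and intergenic MIR, L2 and CR1 copies for the 4 demethylase constructs (x axis), with 1 point per library and a bar at the mean of 2. The 2 IDR-deleted KDM4A libraries sit at 345 and 355 CPM in the intergenic panel, below the 652 and 660 CPM of full-length KDM4A, while their exonic values overlap.

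CPM here are relative to reads on genes, by effective library sizes of the gene table. Scaling to reads on ERCC RNA controls, which the labels do not describe, moves every log2 change by -0.65 for KDM4A, -0.19 for KDM4B, -0.21 for KDM6A and -0.38 for KDM6B. Scaling to total gene reads moves KDM4A by -0.19 and the others by less than 0.1. Scaling to the repeat families themselves moves the changes by 0.30, 0.18, -0.06 and 0.33 in the same order. A fall relative to gene reads is therefore not always a fall relative to other repeats.

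Deleting the disordered region of KDM4A went with fewer reads on ancient copies, most of all between genes. Intergenic copies of the 3 families had 355 and 345 CPM with IDR-deleted KDM4A, against 660 and 652 CPM with full-length KDM4A, a log2 change of -0.91 ± 0.02 (SE, edgeR adjusted p = 1.98e-12). This fall kept its direction under every scaling run, from -1.56 with ERCC reads to -0.61 with the repeat families. Intronic copies had 6722 and 6789 CPM with the deletion, against 7800 and 7767 CPM without it, and fell by 0.20 ± 0.02 (adjusted p = 8.22e-07). When scaled to repeat families this direction turned, to a rise of 0.10 that passed the threshold. Exonic copies had 1287 and 1281 CPM with IDR-deleted KDM4A and 1286 and 1288 CPM with full-length KDM4A, and their change did not pass the test (adjusted p = 0.898). Scaling to repeat families gave a rise of 0.30 there, past the threshold.

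The families kept one order between genes. Intergenic CR1 copies had 15.6 and 14.6 CPM with IDR-deleted KDM4A, against 36.4 and 37.7 CPM with full-length KDM4A, a log2 change of -1.29 ± 0.07. Intergenic L2 copies changed by -1.01 ± 0.03 and intergenic MIR copies by -0.81 ± 0.03, all 3 past the threshold and all 3 below 0 under each scaling run. Differences between the families were not tested. Over all positions MIR changed by -0.18 ± 0.02, L2 by -0.24 ± 0.03 and CR1 by -0.39 ± 0.04. With scaling to repeat families MIR turned to 0.12, past the threshold. Under it L2 turned to 0.06 and CR1 stood at -0.09, and both missed the threshold. A change past the threshold was common among repeats, since 71.7% of the 60 family sums fell and 69.6% of the 168 sums per family and position did.

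Of 10778 members with enough reads to be tested singly, 464 rose and 1540 fell with IDR-deleted KDM4A, 18.6% of them, beside 19.4% of all 716086 repeat copies tested, of which 3.24% rose and 16.2% fell. With scaling to the single copies 892 rose and 786 fell, with ERCC reads 97 rose and 4035 fell, and with total gene reads 309 rose and 2152 fell. Leaving out any 1 of the 4 libraries brought the count to between 1158 and 1331. The median log2 change was -0.32 for the members and -0.43 for all copies tested. Among intergenic members 8 of 985 rose and 276 fell, 28.8%, beside 29.4% of all intergenic copies tested.

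Of the 4 named rises, 3 lay in genes whose exon reads also rose. The copies in Sbsn and Cds1 touch exons, so their reads may also count as exon reads of the gene. Only the intronic copy in Gtf3c1 gives a separate comparison. A MIR copy in an exon of Sbsn, which encodes a secreted epidermal protein (chr7:30453241-30453343, GRCm39), had 2.97 and 3.08 CPM with IDR-deleted KDM4A, against 0.256 and 0.526 CPM with full-length KDM4A. Its log2 change was 2.92 ± 0.38 (adjusted p = 1.27e-08), and exon reads of Sbsn changed by 2.45. A MIR copy in an intron of Gtf3c1, a subunit of the RNA polymerase III factor TFIIIC (chr7:125306107-125306184), had 4.28 and 5.17 CPM, against 0.792 and 0.668 CPM, and changed by 2.69 ± 0.28 while the exons changed by 0.59. The other 2 named rises were a MIR copy 21995 bases upstream of Gm26815, at 2.58 ± 0.45, and one in an exon of Cds1, a CDP-diacylglycerol synthase, at 2.29 ± 0.44.

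The largest falls ended near 0 reads. A CR1 copy in an intron of Trpc5, a cation channel gene (chrX:143198704-143198785), had no read in either IDR-deleted KDM4A library, against 1.30 and 1.05 CPM with full-length KDM4A. Set against 3 reads over both deleted libraries it was at least 24.8-fold lower, and exon reads of Trpc5 changed by -2.26. An L2 copy 64841 bases downstream of Gm4803 (chr12:11650682-11650931) had 0 and 0.0685 CPM with the deletion, against 1.26 and 0.992 CPM without it, a 35.4-fold difference with a 95% counting interval from 9.56 to 296. A MIR copy in an intron of Ddr2, a collagen receptor, changed by -4.14 ± 0.62, and an L2 copy in an intron of Kctd16, an auxiliary subunit of GABA-B receptors, by -3.91 ± 0.56. Exon reads of Ddr2 changed by -1.47 and those of Kctd16 by -2.14, in the direction of the copies.

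**Figure D2:**
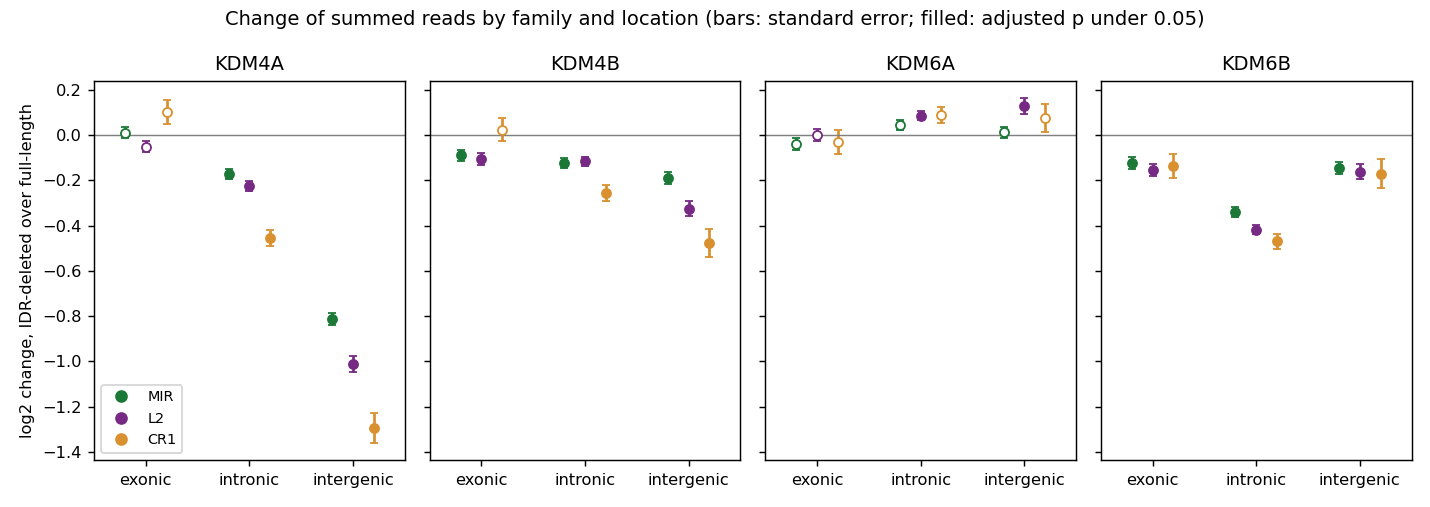
Log2 change of summed reads (y axis, IDR-deleted over full-length) for MIR, L2 and CR1 copies by position (x axis) in the 4 demethylases, with SE bars and filled points where the edgeR adjusted p was under 0.05. In KDM4A the intergenic points lie at -0.81, -1.01 and -1.29, and in KDM6B the intronic points at -0.34, -0.42 and -0.47 lie below the exonic ones. Scaling to repeat families would move the 4 panels by about 0.30, 0.18, -0.06 and 0.33, so that points closer to 0 than that on the other side change sign.

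Deleting the disordered region of KDM4B went with fewer reads, relative to gene reads, in all 3 positions. Intergenic copies had 626 and 630 CPM with IDR-deleted KDM4B, against 743 and 754 CPM with full-length KDM4B, and fell by 0.25 ± 0.02 on the log2 scale (adjusted p = 2.51e-06), to -0.07 and past no threshold when scaled to repeat families. Intronic copies had 7986 and 8049 CPM, against 8799 and 8729 CPM, and fell by 0.13 ± 0.02, and exonic copies had 1297 and 1282 CPM, against 1374 and 1368 CPM, and fell by 0.09 ± 0.02. Both of these directions turned with scaling to repeat families, to 0.05 and 0.09, neither past the threshold. Over all positions the sums changed by -0.12 ± 0.02 for MIR, -0.13 ± 0.03 for L2 and -0.23 ± 0.04 for CR1. Under that scaling MIR and L2 turned to 0.05 each, neither past the threshold. Falls were found in 56.7% of all 60 family sums and in 50% of the 168 sums per family and position.

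Among the 10778 members tested, 132 rose and 289 fell with IDR-deleted KDM4B, 3.91%, beside 4.68% of all copies tested, of which 1.04% rose and 3.65% fell. Scaling to single copies gave 203 and 177, ERCC reads 80 and 572, and leaving out any 1 of the 4 libraries left 151 to 200 calls. A MIR copy 662 bases downstream of the serpin gene Serpina3m (chr12:104361178-104361271) had no read in either IDR-deleted KDM4B library, against 1.64 and 1.47 CPM with full-length KDM4B, at least 50.5-fold lower by the limit of 3 reads. A MIR copy 1046 bases upstream of Gm48023 (chr10:70681683-70681801) had 0.274 and 0.422 CPM, against 5.91 and 5.16 CPM, a log2 change of -3.98 ± 0.40 (adjusted p = 1.37e-11). A MIR copy in an intron of Tmem132d changed by -3.73 ± 0.60 and an L2 copy in Gm33103 by -3.49 ± 0.42, with host exons at -2.50 and -4.16. The summed level of 8 stem cell genes was 1707 to 1791 CPM with IDR-deleted and 2104 to 2191 CPM with full-length KDM4B, and that of 3 neural genes reached 15.6 CPM with IDR-deleted and 20.3 CPM with full-length KDM4B. The fibroblast sum went the other way, with 4.38 to 4.93 CPM with IDR-deleted and 3.66 to 3.93 CPM with full-length KDM4B. The part of these lists in the changes was not tested with KDM4B either.

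The rises with IDR-deleted KDM4B were smaller. An L2 copy in an intron of Ccdc158 had 1.05 and 1.00 CPM with IDR-deleted KDM4B, against 0.147 and 0.263 CPM with full-length KDM4B, a log2 change of 2.32 ± 0.47 (adjusted p = 0.000486). An L2 copy in an intron of Hmcn2, which encodes an extracellular matrix protein (chr2:31318619-31318777), had 4.68 and 3.59 CPM, against 1.34 and 0.947 CPM, a change of 1.84 ± 0.24. The same Hmcn2 copy was among the named falls with IDR-deleted KDM6A. MIR copies in an intron of Tmprss6, a protease that controls hepcidin, and 2940 bases downstream of Vegfa, the vascular growth factor gene, changed by 1.81 ± 0.45 and 1.78 ± 0.38. With IDR-deleted KDM4B, exon reads of Ccdc158 changed by 1.76, of Hmcn2 by 0.94 and of Tmprss6 by 0.77, in the direction of the copies.

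With KDM6A most measured changes were too small to pass the test. The 3 families had 11078 and 11193 CPM with IDR-deleted KDM6A, against 10804 and 10672 CPM with full-length KDM6A, and although the libraries did not overlap the log2 change of 0.05 ± 0.02 missed the threshold (adjusted p = 0.0584). With ERCC reads the same sum changed by -0.16, past the threshold. L2 was the family that passed, with 4101 and 4140 CPM, against 3892 and 3908 CPM, and a rise of 0.08 ± 0.03 (adjusted p = 0.0379) that turned to -0.14 with ERCC reads and missed the threshold without any 1 of the 4 libraries. The L2 rise also missed the threshold at 0.05 with total gene reads, at 0.02 with scaling to repeat families and at 0.08 in a fit of the 4 libraries alone. Among all family sums 18.3% rose, and among the sums per family and position 10.1%. MIR changed by 0.03 ± 0.02 and CR1 by 0.07 ± 0.04, neither past the threshold. With ERCC reads MIR fell by 0.18 (adjusted p = 0.0274) and CR1 had a change of -0.14 that missed the threshold (adjusted p = 0.0857), and with scaling to repeat families MIR had a change of -0.03. By position the 3 families together changed by 0.06 in introns, 0.06 between genes and -0.02 in exons, none past the threshold. L2 passed it in introns at 0.09 (edgeR adjusted p = 0.0254) and between genes at 0.13 (edgeR adjusted p = 0.0415). Neither passed with ERCC reads, total gene reads or scaling to repeat families. The stem cell sum was 2083 to 2206 CPM with IDR-deleted and 1972 to 2054 CPM with full-length KDM6A, and the neural sum 14.2 to 15.0 and 11.2 to 11.9 CPM. The primitive endoderm sum was 4.72 to 6.37 and 6.66 to 6.84 CPM, and the fibroblast sum 3.75 to 4.28 and 4.46 to 5.26 CPM, in the same order. The part of these lists in the changes was not tested.

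Of the members tested, 10 rose and 5 fell with IDR-deleted KDM6A, 0.139%, beside 0.127% of all copies tested, of which 0.0913% rose and 0.0356% fell. DESeq2 called 22 and 10, ERCC reads as library size gave 1 and 15, and leaving out any 1 of the 4 libraries left 1 to 5 calls. A MIR copy in an intron of Tenm4, a teneurin gene of neural development (chr7:96102862-96102903), had 2.39 and 2.84 CPM with IDR-deleted KDM6A, against 0.880 and 0.571 CPM with full-length KDM6A, a log2 change of 1.83 ± 0.36 (adjusted p = 0.00744). A CR1 copy in an intron of the zinc finger gene Zfp462 (chr4:55057709-55057824) had 9.97 and 9.35 CPM, against 5.26 and 5.34 CPM, a change of 0.87 ± 0.16. The other named rises were a MIR copy in an exon of 6030442K20Rik, at 1.39 ± 0.32, and an L2 copy in an intron of Grwd1, a ribosome assembly factor, at 0.86 ± 0.17. A MIR copy 2136 bases downstream of Gm26008 (chr6:39240554-39240642) fell furthest, with 0.536 and 0.787 CPM, against 2.32 and 2.29 CPM, and a change of -1.79 ± 0.30. MIR copies in introns of Exoc6b, an exocyst subunit gene, and of Pdk1, a kinase of pyruvate dehydrogenase, changed by -1.72 ± 0.39 and -1.57 ± 0.32, and the L2 copy in Hmcn2 by -1.10 ± 0.25. Exon reads of the hosts changed in the direction of the copies, all past the threshold. They rose by 0.82 for Tenm4, 0.79 for 6030442K20Rik, 0.61 for Zfp462 and 0.61 for Grwd1. For Exoc6b they changed by -0.24, for Pdk1 by -0.91 and for Hmcn2 by -0.33. Without the first IDR-deleted KDM6A library, none of these 8 copies passed the threshold. Without the second IDR-deleted library 5 of the 8 missed it, and 7 did without either of the full-length KDM6A libraries.

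**Figure D3:**
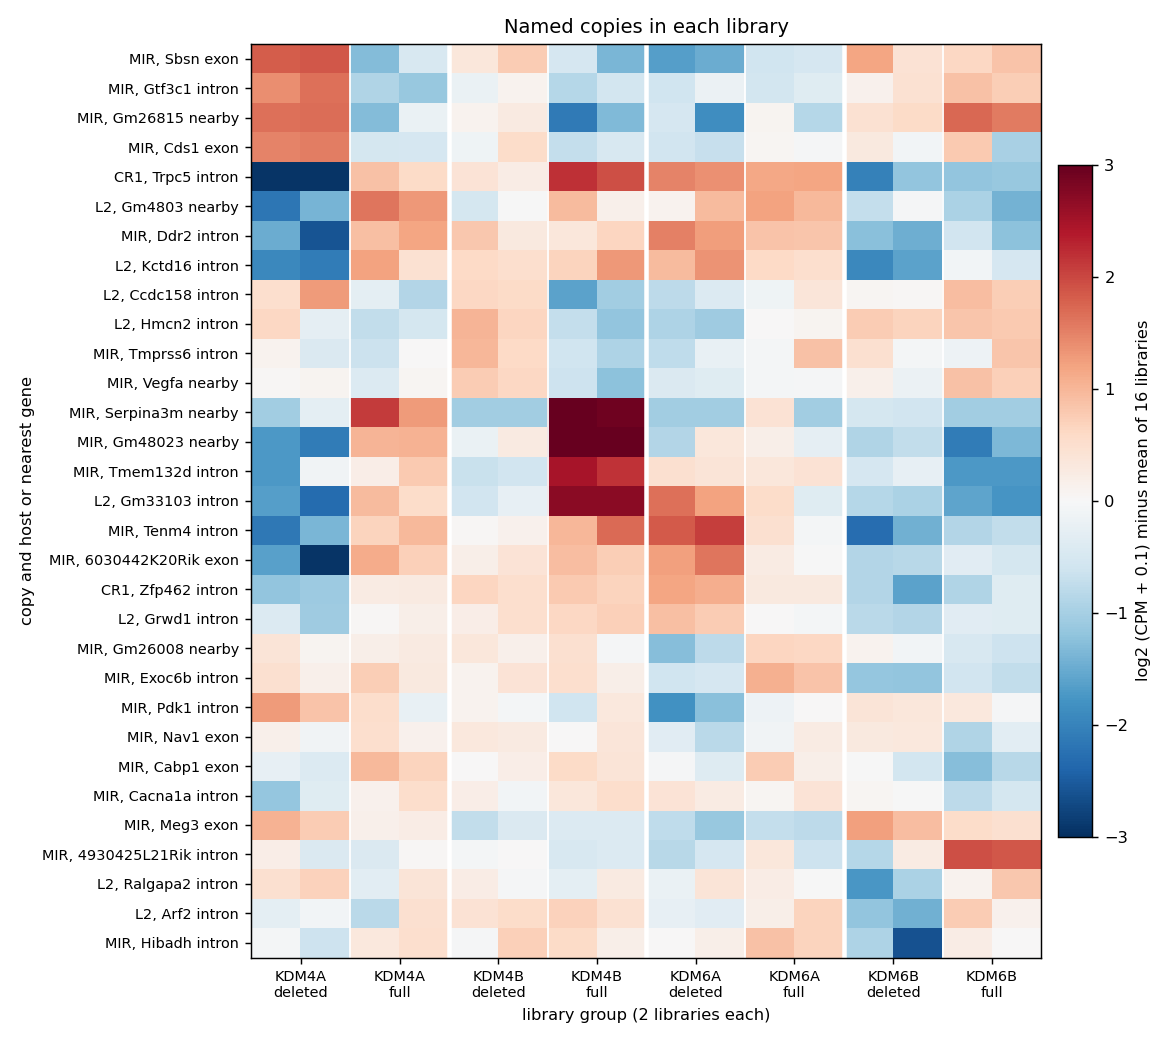
Level of each copy named for a change in 1 of the 4 demethylases (rows, with its host or nearest gene) in each of the 16 libraries (columns, IDR-deleted left of full-length), as log2 of CPM plus 0.1 minus the mean of the row. The 4 top rows, from Sbsn to Cds1, are highest with IDR-deleted KDM4A or, at Gm26815, close to that in full-length KDM6B, and the rows from Serpina3m to Gm33103 are highest in the 2 full-length KDM4B libraries.

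With KDM6B the deletion went with fewer reads in introns first of all. Intronic copies had 4834 and 4809 CPM with IDR-deleted KDM6B, against 6345 and 6137 CPM with full-length KDM6B, and fell by 0.37 ± 0.02 on the log2 scale (adjusted p = 8.23e-09), to -0.04 and past no threshold with scaling to repeat families. Intergenic copies had 372 and 369 CPM, against 415 and 408 CPM, and fell by 0.15 ± 0.02, and exonic copies had 1151 and 1139 CPM, against 1267 and 1248 CPM, and fell by 0.13 ± 0.02. Scaling to repeat families turned both, to rises of 0.18 and 0.20 that each passed the threshold. Over all positions MIR changed by -0.29 ± 0.02, L2 by -0.36 ± 0.03 and CR1 by -0.37 ± 0.04. Under that scaling MIR turned to 0.04, L2 stood at -0.03 and CR1 at -0.04, none past the threshold. Falls were found in 66.7% of all 60 family sums and in 51.8% of the 168 sums per family and position.

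Of the members tested, 23 rose and 437 fell with IDR-deleted KDM6B, 4.27%, beside 4.17% of all copies tested, of which 0.32% rose and 3.85% fell. Scaling to single copies gave 42 and 41, ERCC reads gave 23 and 2107, a fit of the 4 libraries alone gave 11 and 252, and leaving out any 1 of the 4 libraries left 162 to 273 calls. Among intergenic members 3 rose and 10 fell of 985, 1.32%, beside 2.30% of all intergenic copies tested. The sum of 3 neural genes, Tubb3, Pax6 and Neurod1, was 23.5 to 24.5 CPM with IDR-deleted and 16.8 to 16.9 CPM with full-length KDM6B. The sum of the 5 fibroblast genes was 5.59 to 6.92 CPM with IDR-deleted and 3.49 to 4.38 CPM with full-length KDM6B, and the part of both lists in these changes was not tested. Only 4 rises met the naming rule. MIR copies rose in exons of Nav1, a gene of neuron guidance, by 0.92 ± 0.22, of Cabp1, a calcium-binding protein gene, by 0.82 ± 0.25, and of the imprinted noncoding gene Meg3 by 0.58 ± 0.15, and in an intron of the calcium channel gene Cacna1a by 0.70 ± 0.22. Exon reads of the hosts rose as well, by 0.44 for Nav1, 0.52 for Cabp1, 0.21 for Meg3 and 0.21 for Cacna1a, all past the threshold. Reads of the copies that touch exons may also count as exon reads of the gene. The Meg3 copy (chr12:109510419-109510468) had 18.9 and 15.2 CPM with IDR-deleted KDM6B, against 11.7 and 11.1 CPM with full-length KDM6B. All 4 copies missed the threshold with ERCC reads as library size.

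The named falls with KDM6B lay in introns whose genes changed little or less. An L2 copy in Ralgapa2, a gene that inactivates Ral GTPases (chr2:146333803-146334131), had 0.196 and 0.412 CPM with IDR-deleted KDM6B, against 0.975 and 1.65 CPM with full-length KDM6B. It changed by -2.08 ± 0.41 (adjusted p = 0.000959), with exon reads at -0.07. An L2 copy in the small GTPase gene Arf2 changed by -2.05 ± 0.39 with exons at -0.21, and a MIR copy in Hibadh, an enzyme of valine breakdown, by -2.01 ± 0.43 with exons at -0.26. A MIR copy in 4930425L21Rik changed by -2.43 ± 0.50 with exons at -1.17. Of the 8 copies named for KDM6B, 6 missed the threshold without the first IDR-deleted library and 3 without the second, and 4 without the first full-length library and 2 without the second.

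The deletion effects were compared directly between the paralogues. Subtracting the KDM4B effect from the KDM4A effect gave -0.65 ± 0.03 for intergenic copies (adjusted p = 1.69e-08), -0.08 ± 0.03 for intronic copies and 0.09 ± 0.03 for exonic copies, all past the threshold. Of the families, L2 differed by -0.11 ± 0.04 and CR1 by -0.16 ± 0.05, and the difference of -0.06 ± 0.03 for MIR missed the threshold (adjusted p = 0.162). Subtracting the KDM6B effect from the KDM6A effect gave 0.44 ± 0.03 in introns, 0.21 ± 0.03 between genes and 0.11 ± 0.03 in exons. Several of these directions turned with the scaling, and the differences under other scalings were not tested. KDM4A minus KDM4B in exons became -0.38 with ERCC reads and -0.15 with total gene reads. With scaling to repeat families it became 0.05 in introns, 0.0090 for L2 and 0.07 for MIR, and CR1 stood at -0.04. Between genes it stayed below 0 under the 5 scalings, from -1.12 to -0.53. KDM6A minus KDM6B became -0.18 between genes, -0.28 in exons and 0.04 in introns with scaling to repeat families, and was above 0 in all 3 positions under the other 4. Of single members, 57 were higher and 284 lower in the first difference, 3.16% beside 3.73% of all copies, and 235 were higher and 21 lower in the second, 2.38% beside 2.07%.

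Distance from the nearest gene was recorded for all 16250 intergenic copies. Within 5 kb downstream of a gene the copies summed to 115 and 110 CPM with IDR-deleted KDM4A, against 199 and 196 CPM with full-length KDM4A, a log2 ratio of means of -0.82. At 50 kb or more downstream they summed to 8.07 and 7.81 CPM, against 28.3 and 28.7 CPM, a ratio of -1.84, with -1.02 between 5 and 50 kb. Upstream of genes the ratios were -0.76 within 5 kb, -0.94 between 5 and 50 kb and -1.02 beyond. With KDM4B the ratios downstream were -0.10, -0.34 and -1.05 and upstream -0.21, -0.25 and -0.83, in the order near to far. With KDM6A all 6 lay between 0.0021 and 0.13, and with KDM6B between -0.21 and 0.10. Downstream the KDM6B ratios were -0.21, -0.07 and 0.10 from near to far, the opposite order to KDM4A and KDM4B. Upstream they were -0.19, -0.09 and -0.17, with no steady order. Scaling to repeat families turned 1 of the 6 KDM4B ratios, at less than 5 kb downstream, to 0.08, turned 3 of the KDM6A ratios to below 0 and brought all 6 KDM6B ratios above 0, to between 0.12 and 0.43. With ERCC reads all 6 KDM6A ratios lay below 0, between -0.21 and -0.09, and all 6 KDM6B ratios between -0.59 and -0.28. Total gene reads turned 1 KDM6A ratio, and no KDM4A ratio turned under any scaling. The farthest bins rest on 68 downstream and 45 upstream members, and trends over distance were not tested.

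**Figure D4:**
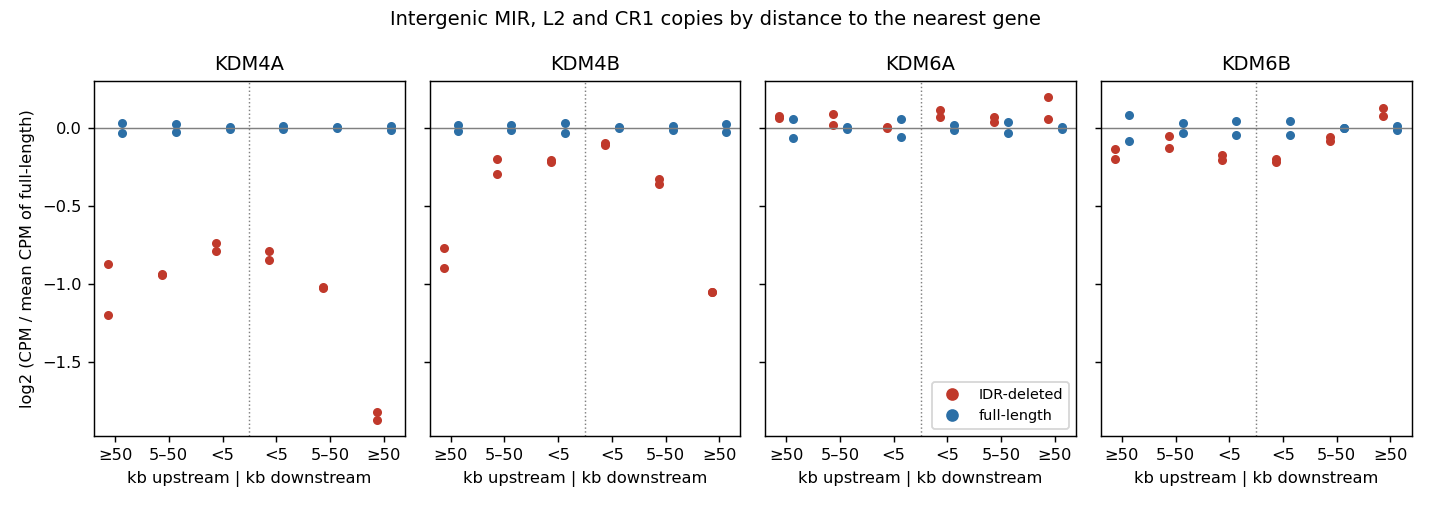
Log2 of summed CPM over the mean of the 2 full-length libraries (y axis) for intergenic copies in 6 bins by distance in kb upstream or downstream of the nearest gene (x axis), with 1 point per library. With KDM4A and KDM4B the IDR-deleted points lie lowest at 50 kb or more downstream, at ratios of -1.84 and -1.05, while those of KDM6A and KDM6B lie near 0. Scaling to repeat families would move the IDR-deleted ratios by 0.30, 0.18, -0.06 and 0.33 in the order KDM4A, KDM4B, KDM6A and KDM6B, which turns 1 KDM4B, 3 KDM6A and 5 KDM6B ratios.

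Most tested intronic members could be set beside the exons of their host. For 8785 members in 3962 host genes, Pearson's r between the log2 change of the copy and that of the host was 0.53 for KDM4A, 0.55 for KDM4B, 0.32 for KDM6A and 0.29 for KDM6B. These values describe copies that share hosts and libraries and are not a test. The median of copy minus host was -0.34 for KDM4A, -0.10 for KDM4B, 0.02 for KDM6A and -0.38 for KDM6B. Of 1130 such copies that fell with IDR-deleted KDM4A, 789 lay in hosts whose exon reads also fell and 134 in hosts whose exon reads rose, beside 32.0% and 42.2% of all 8785 copies whose hosts fell and rose. Of 402 that fell with IDR-deleted KDM6B, 213 lay in hosts that fell and 14 in hosts that rose, beside 19.7% and 18.5% of all copies. Of 379 that rose with IDR-deleted KDM4A, 319 lay in hosts that rose, against 42.2% of all copies.

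**Figure D5:**
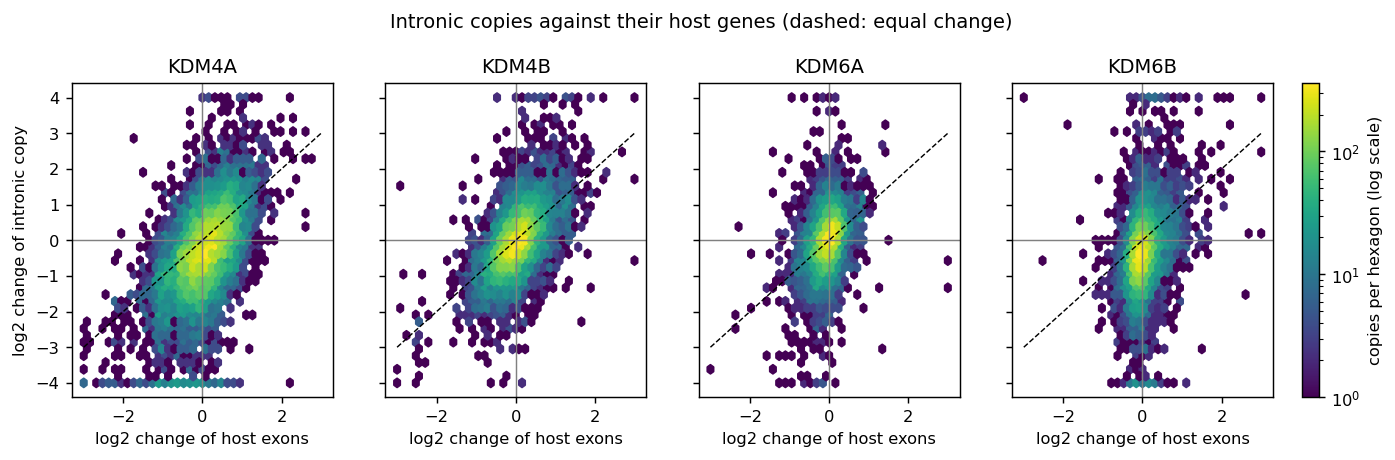
Log2 change of intronic copies (y axis) against that of their host exons (x axis), IDR-deleted over full-length, for 8785 copies in each demethylase, coloured by the number of copies per hexagon, with values beyond the axes drawn at the edge. In KDM4A and KDM6B the densest part lies below the dashed line of equal change, with medians of copy minus host of -0.34 and -0.38.

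The most highly read members were followed by family and position. The highest intronic MIR copy, in Trip12, a ubiquitin ligase gene (chr1:84738228-84738317), averaged 25.0 CPM with a range over the 16 libraries from 19.1 to 28.7. It passed the threshold in none of the 4 demethylases. The second, in Ybx1, an RNA-binding protein gene (chr4:119140680-119140789), averaged 20.1 CPM and rose by 1.39 ± 0.16 with IDR-deleted KDM4A (adjusted p = 9.06e-10), as exon reads of Ybx1 did by 1.08. The highest intronic L2 copies lay in Tial1 and Ppp6r3, at 20.7 and 17.4 CPM, and the highest intronic CR1 copies in Ranbp17 and Gpc4, at 13.6 and 7.59 CPM. The Gpc4 copy (chrX:51246808-51247214), in the gene of a cell-surface heparan sulfate proteoglycan, fell with IDR-deleted KDM4A by 1.00 ± 0.16, with KDM4B by 0.66 ± 0.14 and with KDM6B by 1.86 ± 0.18.

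Among the most highly read exonic members, some passed the threshold and some did not. MIR copies in Luc7l2, a splicing factor gene, and Triml2 averaged 17.5 and 16.2 CPM, and neither passed the threshold in any demethylase. The CR1 copy in Srsf10, a splicing regulator gene, averaged 19.6 CPM with a range from 14.2 to 24.3, while the one in Anln, which encodes the cytokinesis protein anillin, averaged 11.7 CPM and rose by 1.18 ± 0.15 with IDR-deleted KDM4A. L2 copies in Fam13b and Srrm2 averaged 14.3 and 14.2 CPM, and the Fam13b copy rose by 0.58 ± 0.15 with IDR-deleted KDM4A and fell by 0.81 ± 0.15 with IDR-deleted KDM6B. Between genes, all 6 top copies fell with IDR-deleted KDM4A, from -0.63 at Srebf1 to -2.69 ± 0.30 for a CR1 copy 45675 bases downstream of Grxcr1. These 6 were chosen for their many reads. Of all intergenic copies tested singly, 28.0% of the members and 27.9% of the copies of any repeat family fell. The L2 copy 8114 bases upstream of Katnal2 averaged 9.33 CPM and the MIR copy 12627 bases upstream of Platr28 averaged 3.04 CPM, and these fell by 1.42 ± 0.17 and 2.07 ± 0.24. The Platr28 copy lies within 100 kb of another of the 6, an L2 copy (chr7:106928404-106928682), so the 6 are not all separate places.

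In all, 10 measures per library were tested over the 4 demethylases together with an exact two-sided permutation test that kept each library within its demethylase (smallest possible p = 0.00154), and none passed after adjustment over the 10. The nearest was ancient reads as CPM of gene reads, with a mean difference of -1110 (exact permutation p = 0.00926, adjusted p = 0.0823) and a difference of 177 the other way for KDM6A. The intergenic share of ancient reads was 4.24% and 4.10% with IDR-deleted KDM4A, against 6.77% and 6.71% with full-length KDM4A, but 5.85% and 5.85% with IDR-deleted KDM6B, against 5.17% and 5.24% with full-length KDM6B (exact permutation p = 0.23, adjusted p = 0.307). The exonic share was 15.4% and 15.2%, against 13.2% and 13.3%, for KDM4A and 18.11% and 18.03%, against 15.78% and 16.01%, for KDM6B, and 11.6% and 11.5%, against 12.4% and 12.1%, for KDM6A (exact permutation p = 0.0401, adjusted p = 0.0895). Within 1 demethylase the same exact test cannot go below p = 0.333.

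Ancient copies took 1.17% to 1.28% of all repeat reads in every library, and this share did not separate the forms (exact permutation p = 0.312, adjusted p = 0.346). Against single families, the log2 ratio of ancient to L1 reads was higher with IDR-deleted KDM4A by 0.38 and KDM4B by 0.22, and lower by -0.08 with KDM6B (exact permutation p = 0.0556, adjusted p = 0.0926). The mean difference against hAT-Charlie DNA transposons was 0.05 (exact permutation p = 0.0185, adjusted p = 0.0823), against ERVL-MaLR elements 0.06 (p = 0.0247, adjusted p = 0.0823) and against the SINE/Alu family -0.0092 (p = 0.407).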

How the data were processed

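Chromatin-associated RNA of 16 libraries, 2 in each of 8 groups, was read from 2 deposited tables of raw counts, one per gene (exons) and one per repeat copy. Per the file headers the authors used featureCounts 2.0.3 on single reads of mapping quality 30 or more, without strand and with multi-mapping and multi-overlapping reads dropped. HISAT2 and the GRCm39 build are named in the submitters' processing notes. Copies without uniquely mapped reads are therefore undercounted.

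The members, the gene lists and the tests were chosen with earlier results of these data known. Copies were placed by the exons and gene spans of the gene table. Counts were tested with edgeR 4.0.16 (R 4.3.3; quasi-likelihood, robust) over all 16 libraries with 8 group means, with library sizes from TMM over genes without ERCC rows, a filterByExpr minimum count of 10 and Benjamini-Hochberg adjustment at 0.05 over the 716086 copies or over the family sums. Each ± after a log2 change is a standard error. The scripts were tested on simulated data. Measures per library had exact permutation tests (scipy 1.17.1). Named copies were the 4 largest rises and 4 largest falls per demethylase past the threshold, with a mean of at least 1 CPM in the higher group, no overlap between groups and 1 copy per host or 100 kb, and the 2 most highly read copies per family and position. Folds against 0 reads used 3 reads over the group, and intervals cover counting error only. Alternatives were other library sizes, filters, DESeq2 1.42.0, a replicate block, a fit of 4 libraries and each library left out. Copy sequences by GRCm39 coordinates were not used here.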

Additional observations from a re-analysis of the deposited data

Results flagged for a closer look

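Effects of the deletion that differed between paralogues by a direct edgeR test of the difference were set aside for a closer look. For KDM4A minus KDM4B the difference in log2 change was -0.16 for CR1 (adjusted p = 0.0195), -0.11 for L2 (adjusted p = 0.018) and -0.082 for the 3 families together (adjusted p = 0.0182). By position it was -0.65 between genes (adjusted p = 1.69e-08), -0.076 in introns (adjusted p = 0.0395) and 0.085 in exons (adjusted p = 0.0371). For KDM6A minus KDM6B it was 0.44 for CR1 (adjusted p = 5.64e-06), 0.44 for L2 (adjusted p = 1.44e-07), 0.33 for MIR (adjusted p = 1.27e-06) and 0.37 for the 3 families together (adjusted p = 5.23e-08). By position it was 0.44 in introns (adjusted p = 6.47e-08), 0.21 between genes (adjusted p = 0.000207) and 0.11 in exons (adjusted p = 0.00804). With scaling to repeat families KDM4A minus KDM4B became 0.041 for the 3 families, 0.0090 for L2 and 0.047 in introns, and with ERCC reads -0.38 in exons. KDM6A minus KDM6B became -0.022 for the 3 families, -0.068 for MIR, -0.18 between genes and -0.28 in exons with scaling to repeat families, so those directions turned. These values were not tested. The constructs also differ in their full-length levels, and what lies behind these differences was not tested.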

How the results depend on the processing

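Of the read sums under other settings than a left-out library, 173 kept direction and call, 11 lost the call, 9 gained it and 23 turned. With library sizes from repeat families, KDM4A gave -0.089 for CR1, 0.057 for L2, 0.12 for MIR, 0.087 for the 3 families, 0.30 in exons and 0.096 in introns. Of these KDM4A values, all but those for CR1 and L2 passed the threshold. KDM4B gave -0.051, 0.048, 0.054, 0.046, 0.089 and 0.049 in the same order, and -0.075 between genes. KDM6A gave 0.019 for L2, -0.027 for MIR, -0.0078 for the 3 families and -0.0020 between genes. KDM6B gave -0.037 for CR1, -0.028 for L2, 0.041 for MIR, 0.014 for the 3 families, 0.20 in exons, 0.18 between genes and -0.039 in introns. Of these KDM6B values, only those in exons and between genes passed the threshold. With ERCC reads KDM6A gave -0.14 for CR1, -0.14 for L2, -0.18 for MIR, -0.16 for the 3 families, -0.16 between genes, -0.15 in introns and -0.24 in exons, and KDM4A gave -0.66 in exons. With total gene reads exonic sums gave -0.19 for KDM4A and -0.043 for KDM4B, and L2 in KDM6A gave 0.049. The KDM6A sum of the 3 families passed the threshold at 0.058 with median-ratio size factors, 0.063 without exonic copies and 0.052 with DESeq2, as did introns at 0.069 with median-ratio factors and 0.063 with DESeq2, and intergenic copies at 0.058 with DESeq2. L2 in KDM6A missed it at 0.079 in a fit of 4 libraries, and KDM6B intergenic copies at least 10 kb from genes at -0.049. The cause was not tested.

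Called copies came to 4132 for KDM4A, 652 for KDM4B and 2130 for KDM6B with ERCC reads, to 83 for KDM6B with TMM over single copies, and in a fit of 4 libraries to 23 for KDM6A and 263 for KDM6B. DESeq2 called 32 for KDM6A. With a replicate block the counts were 2072, 480, 26 and 551 in the order KDM4A, KDM4B, KDM6A and KDM6B. Of 28 pairs of groups, 15 had a correlation of same-numbered deviations above 0.1 (range -0.0026 to 0.172). These were all the pairs among the KDM4A, KDM4B and KDM6A groups, with 0.123, 0.129 and 0.144 between the 2 forms of each, against -0.0026 for KDM6B. Since not every pair passed, the numbers were not taken to pair the libraries, and the block moved the KDM6A count from 15 to 26. The main tests thus leave out what same-numbered libraries of the KDM4A, KDM4B and KDM6A groups may share. With 1 library left out, which assumes the lone library to vary like the other groups, called copies ranged from 1158 to 1331 for KDM4A, 151 to 200 for KDM4B, 1 to 5 for KDM6A and 162 to 273 for KDM6B. L2 in KDM6A ranged from 0.073 to 0.086 and exons in KDM6A from -0.050 to 0.00085. The log2 ratio of ancient to L1 reads ranged from 0.12 to 0.14, to ERVL-MaLR reads from 0.051 to 0.060, and of intronic to exonic reads from -0.10 to -0.093.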
